A study of Mus musculus with 8 samples.

Results

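Megakaryocyte and platelet genes are described here across 8 single-cell libraries of mouse bone marrow progenitors. The 10 genes were taken by name, out of 19879 gene names in the libraries: Pf4, Ppbp and Vwf (secreted proteins of platelet granules), Itga2b, Gp1bb, Gp9 and Treml1 (surface receptors), and Plek, Rab27b and Sdpr (signalling, granule release and membrane). All 10 were present in the files and had transcripts in at least 1 wild type and 1 heterozygous library. RNA of single sorted cells was read with CEL-Seq2, a method that tags every captured transcript by a random molecular identifier and every well by a barcode. Each genotype was read in 2 sets, called HSC and plate2, which makes 4 groups of 2 libraries. HSC stands for haematopoietic stem cells, and heterozygous mice carry Mof -/+, that is, 1 intact copy of Mof (now Kat8), which encodes a histone acetyltransferase. The comparison of the genotypes asks what the loss of 1 copy changes in progenitors. The labels give no age, no sex and no note on whether the libraries of a group came from separate mice, so every p-value here speaks of the spread among libraries, and that spread may be technical.

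Megakaryocytes are the large bone marrow cells that shed platelets. They descend from stem cells through progenitors shared with red cells, and some stem cells already carry RNA of megakaryocyte genes, a state called platelet-biased. GATA1, FLI1 and RUNX1 are the textbook transcription factors of this lineage. The design text names 8 sort gates, and a megakaryocyte progenitor gate is among them. CD41, the protein product of Itga2b, was selected for in that gate and against in 4 others. Which gate filled a given plate2 well is not labelled, so the share of plate2 wells with any of these genes and the mix of gates cannot be told apart.

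The files held 1536 barcodes, and the 436 with at least 1000 transcripts are called kept wells. There were 50 and 46 kept wells in the wild type HSC libraries, 68 and 68 in the heterozygous HSC libraries, 65 and 45 in wild type plate2, and 48 and 46 in heterozygous plate2. A library's kept wells summed to between 99253 and 733925 transcripts. The median depth of a kept well was 1600 and 1567 transcripts in wild type HSC, 2921 and 2977 in heterozygous HSC, and from 8075 to 12515 in the plate2 libraries. Spike-in RNA followed the genotype in the HSC libraries too, with medians of 136 and 130 per kept well in wild type and 232 and 304 in heterozygous libraries. Kat8 itself gave 1 and 2 transcripts in wild type HSC, 1 and 2 in heterozygous HSC, 10 and 4 in wild type plate2 and 9 and 12 in heterozygous plate2, too few to check the genotype. Stem cell markers summed to between 4072 and 5194 CPM (counts scaled to the same total in every library) in the HSC libraries and between 725 and 1446 CPM in plate2. Most kept wells of a library lay in 1 set of 96 barcodes, called its own. Another 19 lay outside it (11 and 4 in wild type plate2, 3 in heterozygous plate2 library 1 and 1 in heterozygous HSC library 2), 13 of them at barcodes kept in the partner library too, and none of the 19 held a transcript of the 10 genes. Over all libraries 142 barcode numbers were kept in more than 1. Titles and file names exchange the numbers of the 2 wild type plate2 libraries, so which of them is library 1 is uncertain.

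The promoters of the genes that led the richest wells are shown first, because these genes were found together in single wells. Each sequence is the RefSeq window of GRCm38.p6 around the gene's start, read along the gene's strand. Capitals mark letters that match the GATA motif (AGATAA, with G also allowed as its last letter), GGAA (the core of ETS sites such as FLI1's) or TGTGGT (RUNX), on either strand. The first lies at chr5:90772185-90772484 (plus strand), the second at chr11:102469834-102470133 (minus strand) and the third at chr1:51288876-51289175 (plus strand).
Pf4: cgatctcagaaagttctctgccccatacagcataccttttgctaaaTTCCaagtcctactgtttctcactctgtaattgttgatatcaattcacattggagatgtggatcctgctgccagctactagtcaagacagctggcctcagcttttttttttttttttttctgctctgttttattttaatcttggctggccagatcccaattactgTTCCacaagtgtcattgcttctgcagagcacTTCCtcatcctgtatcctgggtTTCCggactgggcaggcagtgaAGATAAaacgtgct
Itga2b: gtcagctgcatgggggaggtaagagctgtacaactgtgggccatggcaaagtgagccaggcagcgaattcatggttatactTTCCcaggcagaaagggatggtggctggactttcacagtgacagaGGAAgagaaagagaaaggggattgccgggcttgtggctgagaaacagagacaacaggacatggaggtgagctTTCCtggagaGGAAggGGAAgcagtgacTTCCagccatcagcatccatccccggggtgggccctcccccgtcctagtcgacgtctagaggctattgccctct
Sdpr: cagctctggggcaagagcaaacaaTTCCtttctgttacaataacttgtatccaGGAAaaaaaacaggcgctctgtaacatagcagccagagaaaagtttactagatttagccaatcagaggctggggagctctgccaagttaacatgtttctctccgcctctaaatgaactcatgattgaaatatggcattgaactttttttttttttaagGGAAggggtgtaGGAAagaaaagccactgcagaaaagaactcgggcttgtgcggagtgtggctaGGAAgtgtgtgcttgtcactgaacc
Of the 10 genes, 8 had a window in the RefSeq table. A GATA match was in 1 of these 8 windows, that of Pf4, and in 18.6% of all 32851 windows. In Pf4 it starts at base 37, counting the gene's first base as 1. GGAA was in 8 of 8 windows and in 31532 of the 32851. TGTGGT was in 1 of 8, that of Gp9, and in 16.8% of all. These matches are letters in a window and were not tested as binding sites.

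Pf4 encodes platelet factor 4, a chemokine stored in platelet granules, and lies on chromosome 5 (90772435 to 90773383, GRCm38). Its kept wells summed to 6 and 2 transcripts in wild type HSC, 65 and 23 in heterozygous HSC, 4 and 9 in wild type plate2 and 56 and 45 in heterozygous plate2. In CPM these were 60.5 and 19.4, then 266 and 114, then 5.45 and 21.2, and last 88.9 and 66.4. Every heterozygous library was above every wild type library of its set. Both heterozygous libraries lay above both wild type libraries for 23.1% of the 6690 tested genes in HSC, for 30.6% in plate2 and for 6.77% in both sets at once. By edgeR's quasi-likelihood test with Benjamini-Hochberg adjustment, Pf4 rose in heterozygous plate2 libraries (log2 fold change 2.58 ± 0.53 SE, adjusted p = 0.0225, 2 libraries a side). There 0.553% of tested genes passed, 0.0299% upward and 0.523% downward. With both sets in 1 fit the log2 fold change was 2.42 ± 0.41 (edgeR adjusted p = 0.0109, 4 libraries a side), where 0.135% of genes passed (0.0149% upward and 0.12% downward). In HSC libraries alone it was 2.20 ± 0.62 and did not pass (edgeR adjusted p = 0.213), where 0.0149% of genes passed. The difference between the effects of the sets was 0.38 ± 0.88 (edgeR adjusted p = 0.926).

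The plate2 result rested on 2 wells. In heterozygous plate2 library 1 a single well held 53 of the 56 Pf4 transcripts, and in library 2 a single well held 36 of the 45. Without the well richest in the 10 genes in each library, called its top well, the plate2 log2 fold change was 0.073 (edgeR adjusted p = 0.999) and that over both sets 1.16 (edgeR adjusted p = 0.880). Top wells were chosen by these same genes, so a drop was partly set in advance. The values show only how much of the sums those wells held. The HSC value was 2.04 without top wells (edgeR adjusted p = 0.352), where 26 of the 38 Pf4 transcripts left in heterozygous library 1 came from 2 further wells. It was 1.5 without heterozygous HSC library 1 and 3.28 without wild type HSC library 1, and passed in neither case (edgeR adjusted p = 0.327 and 0.131). With own barcodes only, Pf4 still passed in plate2 (2.56, edgeR adjusted p = 0.0279) and over both sets (2.41, 0.0140). The plate2 call was also lost without either wild type library (adjusted p = 0.526 without library 1 and 0.0799 without library 2) and without either heterozygous one (0.434 and 0.381), all by edgeR. The call over both sets was lost without heterozygous HSC library 1 (edgeR adjusted p = 0.0503) and without heterozygous plate2 library 1 (edgeR adjusted p = 0.122).

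**Figure D1:**
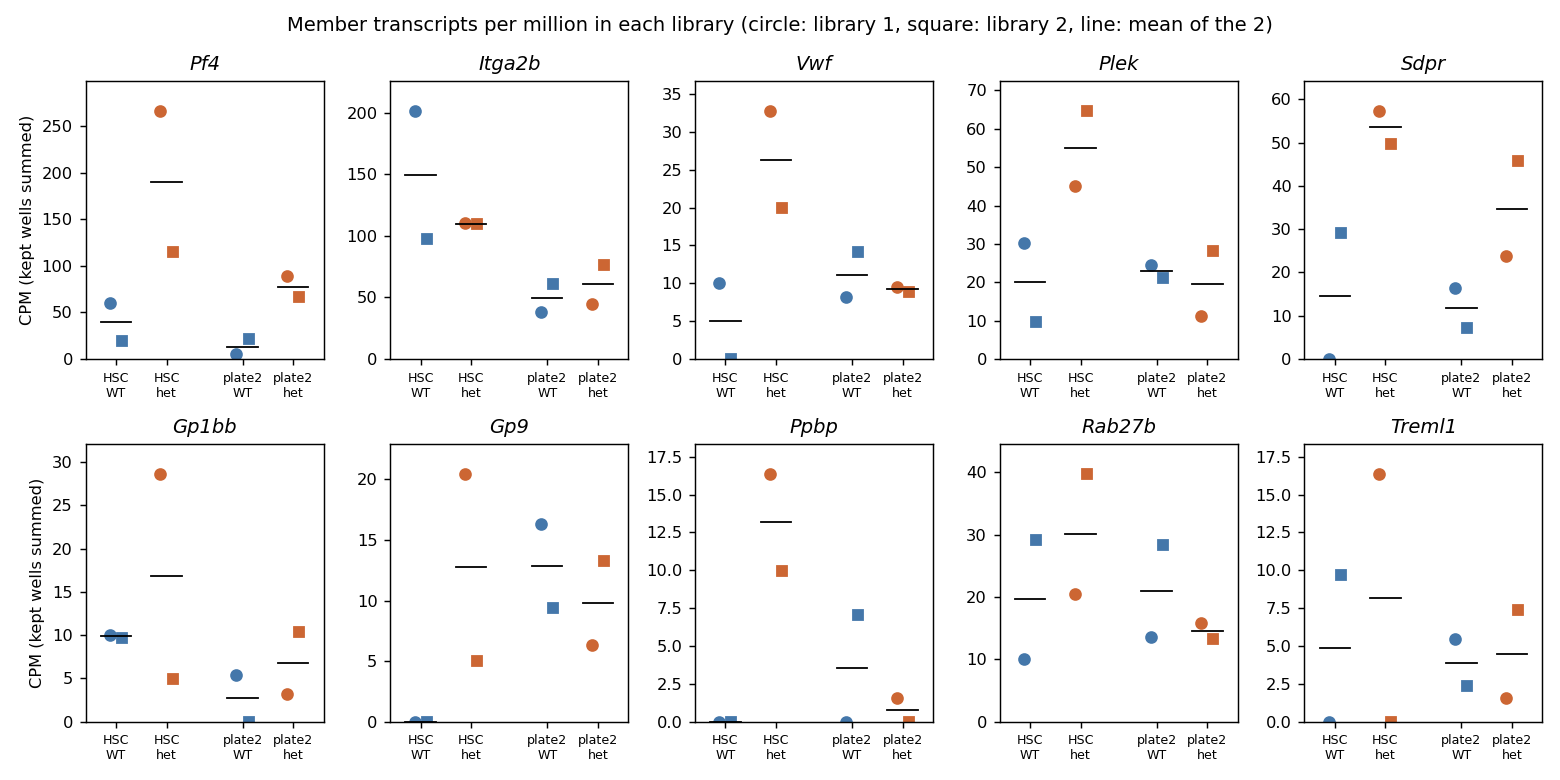
Level in CPM (vertical axis, 1 panel per gene with its own scale) in the summed kept wells of each library. Circles and squares are libraries 1 and 2 of a group, lines the mean of the pair, blue wild type and orange heterozygous. The Pf4 and Sdpr panels show both orange points above both blue points under HSC and under plate2.

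Ppbp encodes the pro-platelet basic protein, another granule chemokine, and ends 2371 bases before Pf4 starts. It gave 0 and 0 transcripts in wild type HSC, 4 and 2 in heterozygous HSC, 0 and 3 in wild type plate2 and 1 and 0 in heterozygous plate2. Its levels in heterozygous HSC were 16.4 and 9.95 CPM, below the 30.2 and 29.1 CPM that 3 transcripts would make in the wild type libraries. A difference of that size was therefore not detectable at this depth.

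Vwf encodes von Willebrand factor, the adhesive protein that platelets and vessel walls store. It gave 1 and 0 transcripts in wild type HSC, 8 and 4 in heterozygous HSC, and 6 in each of the 4 plate2 libraries. In CPM the HSC values were 10.1 and 0 against 32.8 and 19.9, and the groups did not overlap, but 19.9 CPM is below the 30.2 and 29.1 CPM that 3 transcripts would make in wild type HSC. In plate2 they were 8.18 and 14.1 against 9.52 and 8.85, and the groups overlapped. In heterozygous plate2 library 2 a single well held all 6 transcripts, whereas in wild type plate2 library 1 they came from 6 wells.

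Itga2b encodes integrin alpha IIb, or CD41, the alpha chain of the platelet fibrinogen receptor. It gave 20 and 10 transcripts in wild type HSC, 27 and 22 in heterozygous HSC, 28 and 26 in wild type plate2 and 28 and 52 in heterozygous plate2. In CPM these were 202 and 97.1, then 111 and 109, then 38.2 and 61.2, and last 44.4 and 76.7. The genotypes overlapped in both sets. Its log2 fold change between genotypes was -0.50 ± 0.45 in HSC (edgeR adjusted p = 0.724), 0.21 ± 0.38 in plate2 (edgeR adjusted p = 0.997) and -0.10 ± 0.31 over both sets (edgeR adjusted p = 0.997). In wild type HSC library 1 a single well held 10 of the 20 transcripts and no other of the 10 genes. Itga2b was the gene found in most wells, 89 of 436, against 47 for Pf4.

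Gp1bb and Gp9 encode subunits of the glycoprotein Ib-IX-V complex, the platelet receptor for von Willebrand factor. Gp1bb gave 1 and 1 transcripts in wild type HSC, 7 and 1 in heterozygous HSC, 4 and 0 in wild type plate2 and 2 and 7 in heterozygous plate2, with overlapping genotypes in CPM in both sets. Its rows are uncertain, since Gp1bb lies within the annotated Sept5 gene on the same strand, and 7 further Gp1bb transcripts fell on barcodes outside a library's own 96. Gp9 gave 0 and 0 transcripts in wild type HSC and 5 and 1 in heterozygous HSC. In plate2 it gave 12 and 4 transcripts in wild type and 4 and 9 in heterozygous libraries, with overlapping CPM. The Gp9 levels of heterozygous HSC, 20.5 and 4.97 CPM, were again below the 30.2 and 29.1 CPM that 3 transcripts would make in wild type HSC.

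Treml1 encodes TLT-1, a receptor kept in platelet granules and shown on the surface of activated platelets. It gave 0 and 1 transcripts in wild type HSC, 4 and 0 in heterozygous HSC, 4 and 1 in wild type plate2 and 1 and 5 in heterozygous plate2. The genotypes overlapped in both sets.

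Plek encodes pleckstrin, the main substrate of protein kinase C in platelets, and is also made by other blood cells. It gave 3 and 1 transcripts in wild type HSC, 11 and 13 in heterozygous HSC, 18 and 9 in wild type plate2 and 7 and 19 in heterozygous plate2. In CPM the HSC libraries did not overlap (30.2 and 9.71 against 45.1 and 64.7), and the plate2 libraries did (24.5 and 21.2 against 11.1 and 28.0). Its log2 fold change was 1.37 ± 0.82 in HSC (edgeR adjusted p = 0.563) and -0.35 ± 0.53 in plate2 (edgeR adjusted p = 0.997). Plek was spread thinly: it was in 56 wells, the top wells held 12.3% of its transcripts, and no well held more than 4.

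Rab27b encodes a small GTPase that directs platelet dense granule release. It gave 1 and 3 transcripts in wild type HSC, 5 and 8 in heterozygous HSC, 10 and 12 in wild type plate2 and 10 and 9 in heterozygous plate2. The genotypes overlapped in CPM in both sets, and the transcripts came from 43 wells.

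Sdpr, now Cavin2, encodes a coat protein of caveolae that was first described as a phosphatidylserine-binding protein of platelets. It gave 0 and 3 transcripts in wild type HSC, 14 and 10 in heterozygous HSC, 12 and 3 in wild type plate2 and 15 and 31 in heterozygous plate2. In CPM these were 0 and 29.1, then 57.4 and 49.7, then 16.4 and 7.07, and last 23.8 and 45.7, so that heterozygous libraries were higher in both sets. Its log2 fold change was 1.76 ± 0.93 in HSC (edgeR adjusted p = 0.502), 1.31 ± 0.57 in plate2 (edgeR adjusted p = 0.891) and 1.44 ± 0.48 over both sets (edgeR adjusted p = 0.503), and none passed. Top wells held 52 of its 88 transcripts. Outside them lay 0 and 2 transcripts in wild type HSC, 12 and 5 in heterozygous HSC, 7 and 1 in wild type plate2 and 4 and 5 in heterozygous plate2. In these transcripts, not scaled for depth, the HSC libraries stayed apart without the top wells, and the plate2 libraries overlapped. The HSC libraries differed in depth, with 99253 and 103010 transcripts in all in wild type and 244109 and 201017 in heterozygous libraries. The 5 transcripts against 2 are thus not at equal depth. An antisense gene, 9330175M20Rik, overlaps Sdpr, and whether the counting used strand is not given in the sources used here. Plek overlaps Cnrip1 on the opposite strand, so the same doubt holds for Plek. Itga2b overlaps the gene model Gm23563 on the same strand, and how reads shared by 2 genes were counted is not given either.

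Of the 10 genes, 6 had both heterozygous HSC libraries above both wild type ones in CPM (Pf4, Vwf, Plek, Sdpr, Gp9 and Ppbp), beside 23.1% of tested genes. Of these 6, Vwf, Gp9 and Ppbp had at least 1 heterozygous library below what 3 transcripts would make in wild type HSC. In plate2, 2 of 10 did (Pf4 and Sdpr), beside 30.6%, and the same 2 did in both sets, beside 6.77%. None of the 10 had both heterozygous libraries below both wild type ones in either set, which 14.1% of tested genes had in HSC, 13.2% in plate2 and 1.66% in both. The shares of tested genes cover only genes that passed the filter on low counts, which 4 of the 10 did (Pf4, Itga2b, Plek and Sdpr). Of those 4, Pf4, Plek and Sdpr are in the HSC count, and Pf4 and Sdpr in that of plate2.

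Markers of other cell types also differed between libraries, and their part in the values of the 10 genes was not tested. Mature neutrophil markers summed to 2716 and 2156 CPM in wild type plate2 and 381 and 114 in heterozygous plate2, where 7 of 10 fell (edgeR), and 4 and 5 of the 10 were at 0 in the heterozygous libraries. In HSC libraries they summed to 5370 and 38.8 CPM in wild type and 1131 and 2134 in heterozygous. Late erythroid and globin genes summed to 16040 and 1437 CPM in wild type HSC, 1725 and 821 in heterozygous HSC, 2810 and 756 in wild type plate2 and 47.6 and 695 in heterozygous plate2. The top wells of heterozygous plate2 held 3 and 1 mature neutrophil transcripts.

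**Figure D2:**
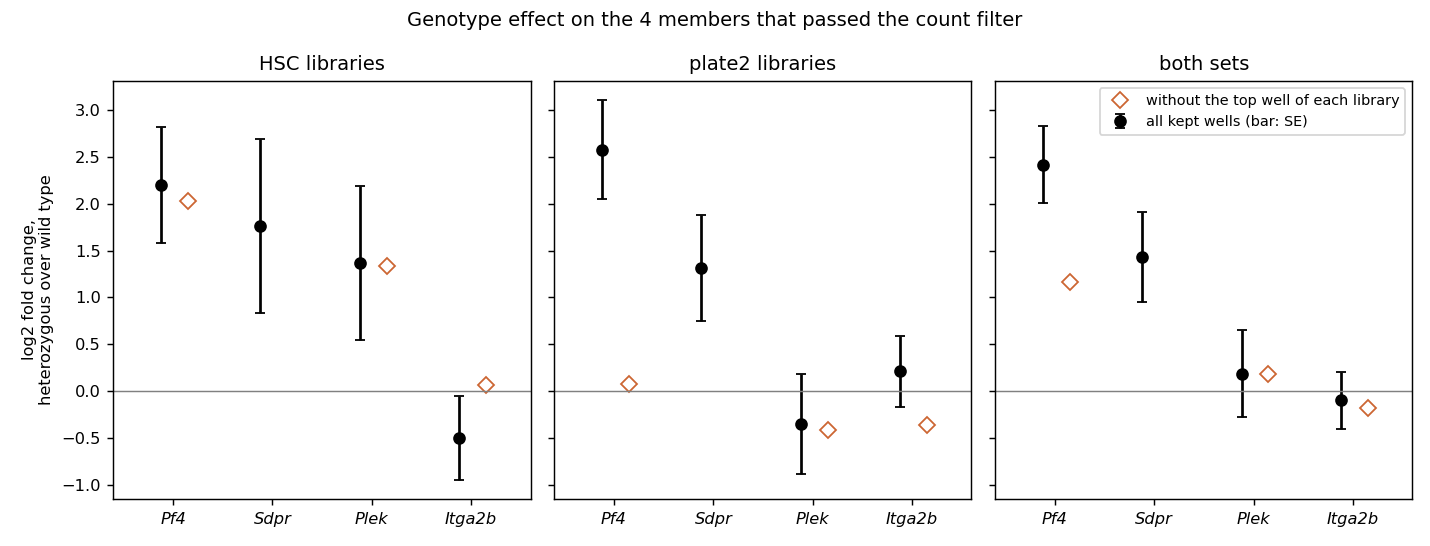
Genotype effect (vertical axis, log2 fold change, heterozygous above wild type is positive) for the 4 genes that passed the filter on low counts, in HSC libraries, in plate2 libraries and over both sets. Black points with SE bars use all kept wells, and open orange diamonds leave out the top well of each library. Pf4 stands at 2.58 in plate2 with all wells and at 0.073 without top wells, while in HSC it goes from 2.20 to 2.04. Sdpr has no diamond because it no longer passed the filter.

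How far transcripts of the 10 genes gathered in single wells differed by gene and by library. Over all libraries 299 of their 771 transcripts (38.8%) were in the 8 top wells. The share of a library's transcripts of the 10 genes in its top well was 31.2% and 19.0% in wild type HSC, 26.7% and 16.7% in heterozygous HSC, 22.4% and 17.8% in wild type plate2, and 70.8% and 56.8% in heterozygous plate2. The heterozygous plate2 libraries thus stood above the other 6. For Pf4, 60.0% of 210 transcripts were in top wells, and for Gp1bb 14 of 23, while Rab27b had 12.1% and Ppbp 1 of 10 there.

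The well at barcode 71 of heterozygous plate2 library 1 held 92 transcripts of 7 of the genes among 16868 in all. They were 53 of Pf4, 17 of Itga2b, 11 of Sdpr, 4 each of Vwf and Plek, 2 of Gp1bb and 1 of Gp9. The well at barcode 166 of heterozygous plate2 library 2 held 104 transcripts of 9 of the genes among 23473. They were 36 of Pf4, 26 of Sdpr, 19 of Itga2b, 6 each of Vwf and Rab27b, 4 of Treml1, 3 each of Gp1bb and Gp9 and 1 of Plek. Both wells also held Kit, a receptor of stem and progenitor cells (3 and 5 transcripts). The next well of library 2, at barcode 134, held 26 transcripts, with 12 of Itga2b and 4 of Pf4. No wild type plate2 well came near these counts: its top wells held 22 transcripts (7 of Itga2b, 5 of Sdpr and 4 of Gp1bb among them) and 13 transcripts.

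Heterozygous HSC library 1 held 3 rich wells. Barcode 18 had 40 transcripts of 8 genes among 5905 in all (0.677%), 27 of them Pf4 and 4 Gp1bb. Barcode 13 had 23 among 2623 (0.877%), 19 of them Pf4, with no Itga2b. As a share of a well's transcripts both were above the top wells of heterozygous plate2 (0.545% and 0.443%). Barcode 23 had 29 transcripts of 9 genes, among them 9 of Itga2b, 7 of Pf4 and 7 of Sdpr, and it also held 247 mature neutrophil transcripts, 76 of S100a9 among them. This well thus held genes of both lineages, and whether it held more than 1 cell was not tested. Heterozygous HSC library 2 had no well above 14 transcripts of the 10 genes and no well above 4 of Pf4.

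**Figure D3:**
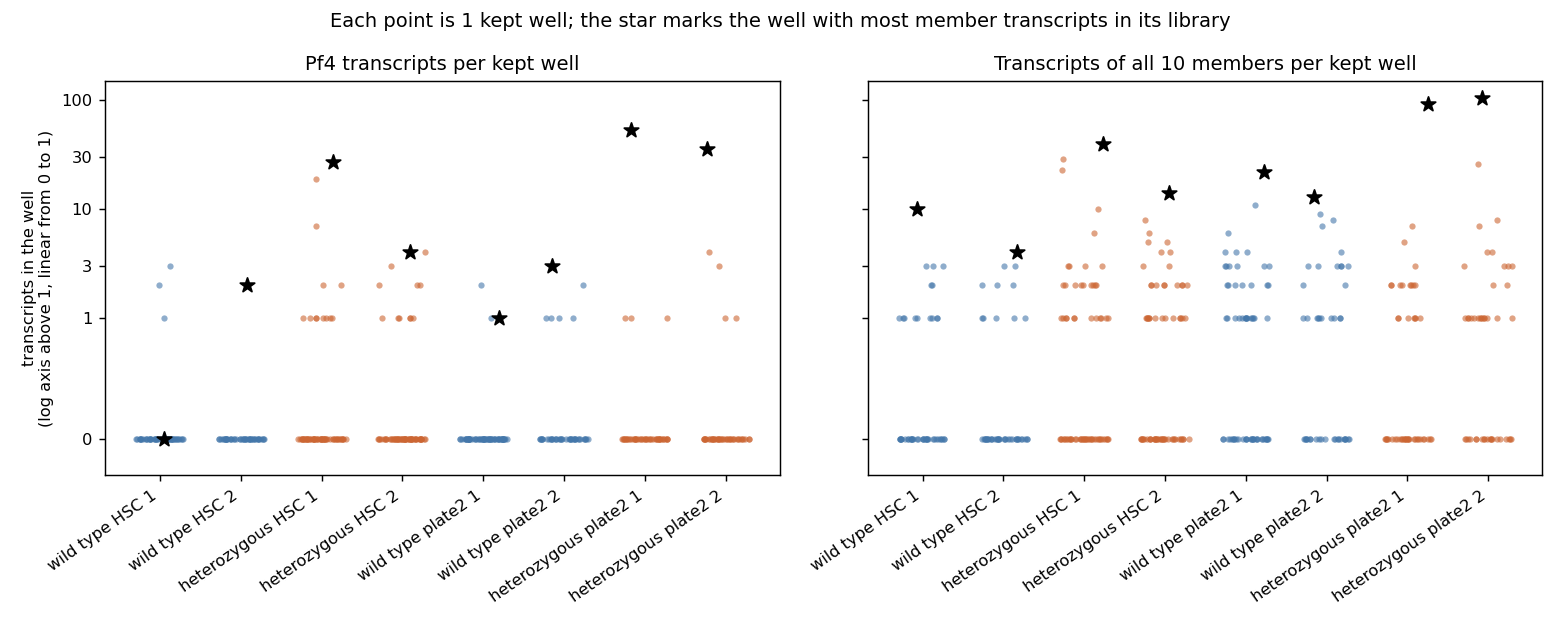
Transcripts per kept well (vertical axis, log above 1 and linear from 0 to 1) for Pf4 on the left and the 10 genes together on the right, by library. Each point is a well, horizontal scatter is only for display, blue is wild type and orange heterozygous, and stars mark top wells. The stars of heterozygous plate2 stand at 92 and 104 transcripts of the 10 genes, the highest counts. These wells are also deep, and counts are not scaled for depth.

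The spread of Pf4 over wells was as follows. In heterozygous HSC libraries 25 of 136 wells held Pf4: 14 wells with 1 transcript, 8 with 2 to 4, and 3 with 5 or more. In wild type HSC 4 of 96 wells held it, at most 3 transcripts each. In heterozygous plate2 9 of 94 wells held it, of which 5 had 1 transcript, 2 had 2 to 4 and 2 had 36 or more. In wild type plate2 9 of 110 wells held it, again at most 3 transcripts each.

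By library, the share of kept wells with Pf4 was 3 of 50 wells and 1 of 46 (2.17%) in wild type HSC, 19.1% and 17.6% in heterozygous HSC, 4.62% and 13.3% in wild type plate2, and 8.33% and 10.9% in heterozygous plate2. The exact 95% Clopper-Pearson intervals reached from 10.6% to 30.5% for heterozygous HSC library 1 and from 1.25% to 16.5% for wild type HSC library 1, and cover counting error only. Averaged over sets, wild type libraries had 6.53% and heterozygous ones 7.46 points more (exact two-sided permutation within sets, p = 0.167, where the 36 arrangements allow no p below 0.0556). The difference was 14.3 points in HSC and 0.627 points in plate2. In shares of wells the genotypes did not overlap in HSC and overlapped in plate2. How many of all tested genes did the same in shares of wells was not computed, so nothing particular to Pf4 is read from it.

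Depth bears on such shares, since heterozygous HSC wells were deeper. With each kept well thinned to 1000 transcripts, Pf4 was in 3 and 1 wells of wild type HSC, 7 and 5 of heterozygous HSC (10.3% and 7.35%), 0 and 2 of wild type plate2 and 1 and 2 of heterozygous plate2. The difference over sets was then 2.86 points (exact permutation p = 0.222). Pf4 stayed more frequent in both heterozygous HSC libraries than in either wild type one, at a smaller distance and within the counting intervals. The nearest shares were 5 of 68 wells against 3 of 50, in a single random draw. The share of all genes doing the same was not computed. Of the unkept barcodes outside a library's own 96, 11 of 749 (1.47%, interval 0.735% to 2.61%) held Pf4, at a median depth of 168 transcripts. That depth is far below 1000, so this share cannot be set beside those of the thinned wells. It pools libraries that differed: 3 of 96 and 3 of 95 held Pf4 in heterozygous HSC, 0 and 2 of 96 in wild type HSC. In each plate2 library at most 1 did. In all, 46 of 859 transcripts of the 10 genes (5.36%) lay on barcodes outside the own 96, where between 2.29% and 13.6% of all transcripts of a library lay. At barcode 71 the partner library of heterozygous plate2 held 2 Pf4 transcripts, and at barcode 166 it held none.

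Wells with several of the genes were few. Of 436 kept wells, 246 held none of the 10 genes and 190 held at least 1. In wild type HSC 20 of 96 wells held 1 gene, 5 held 2 and 1 held 3 or more. In heterozygous HSC 31 of 136 held 1, 21 held 2 and 10 held 3 or more. In wild type plate2 33 of 110 held 1, 13 held 2 and 11 held 3 or more, and in heterozygous plate2 29 of 94 held 1, 9 held 2 and 7 held 3 or more.

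The share of wells with 3 or more genes was 0% and 2.17% in wild type HSC, 8.82% and 5.88% in heterozygous HSC, 7.69% and 13.3% in wild type plate2, and 6.25% and 8.70% in heterozygous plate2. A count of 0 among the 50 wells of wild type HSC library 1 allows up to 3 of 50 by the bound of 3 counts, and 7.11% by the Clopper-Pearson interval. Heterozygous minus wild type was 1.61 points over sets (exact permutation p = 0.611), with 6.27 points in HSC and -3.04 points in plate2. Thinned to 1000 transcripts, 4 wells of heterozygous HSC and 3 of heterozygous plate2 kept 3 or more genes, and no wild type well did. This was a single random draw. The Clopper-Pearson intervals of the wild type zeros reached 7.11% and 7.71% in HSC and 5.52% and 7.87% in plate2. Each limit lay above the heterozygous shares, which ran from 1.47% to 4.41%. The thinned difference was 3.08 points (exact permutation p = 0.0556, the smallest the 36 arrangements allow).

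**Figure D4:**
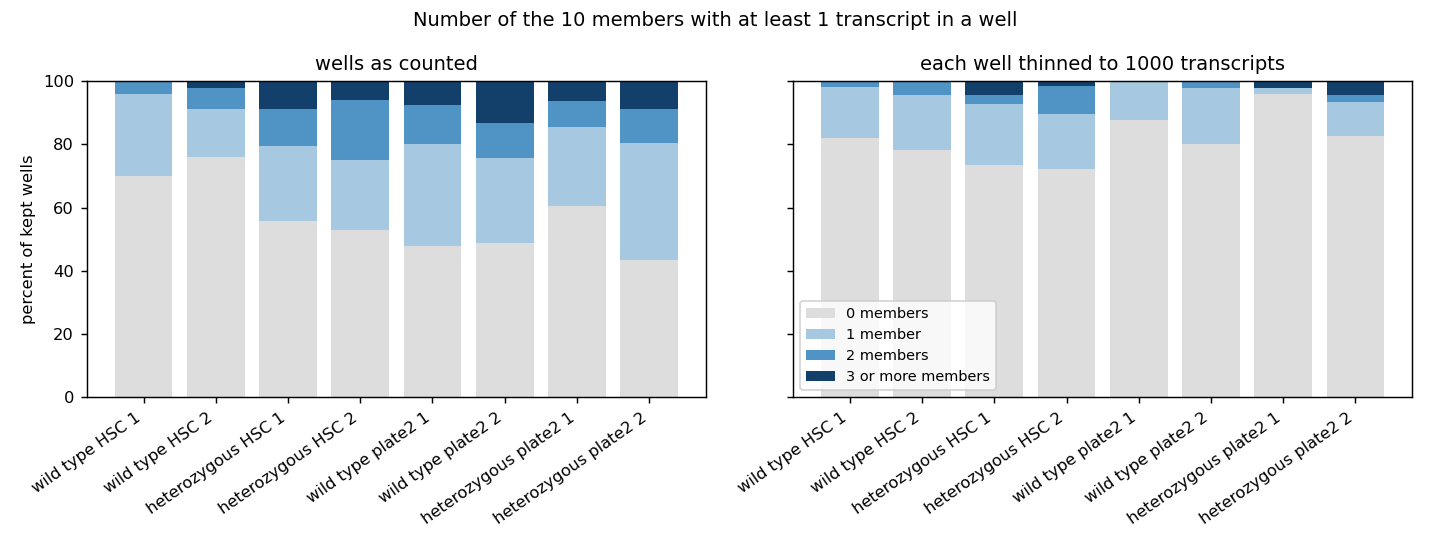
Percent of kept wells (vertical axis) with 0, 1, 2 or at least 3 of the 10 genes, by library, for wells as counted on the left and for wells thinned to 1000 transcripts on the right. As counted, the darkest segment reaches 13.3% in wild type plate2 library 2. After thinning it is absent from the 4 wild type libraries and spans 1.47% to 4.41% of wells in the heterozygous ones. Thinning was a single random draw, and the intervals of the wild type zeros reach above those shares.

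Of the 29 wells with 3 or more genes, 25 held Itga2b and 19 held Pf4. Pf4 and Itga2b were together in 21 wells, 44.7% of the Pf4 wells and 23.6% of the Itga2b wells. Pf4 and Sdpr shared 14 wells, 51.9% of the Sdpr wells, and Pf4 and Gp1bb shared 9, 75.0% of the Gp1bb wells. Without top wells these pairs shared 14, 7 and 4 wells. Gp1bb and Gp9, whose proteins form a complex, shared 4 wells, 33.3% of the Gp1bb wells and 16.7% of the Gp9 wells. Plek and Gp9 shared 3 wells, 5.36% of the Plek wells. Wells share a library and differ in depth, so these counts are a description.

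Genes outside the 10 are given as a description, and the 29 wells were deeper (median 8630 transcripts against 3065 in the other 407). Gata1 was in 13 of the 29 and in 98 of the 407, but its direction differed between groups. It was in 5 of 10 such wells of heterozygous HSC and 3 of 74 wells with none of the genes, and in 2 of 11 such wells of wild type plate2 and 27 of 53 with none. Kit was in 24 of the 29 and 228 of the 407. Mpo, a neutrophil progenitor enzyme, was in 1 of the 29 and 55 of the 407, and the beta globin Hbb-bs in 3 and 66. Of the 29, 1 well held 10 or more mature neutrophil transcripts. In heterozygous HSC the 10 wells with 3 or more genes had a median of 21.5 stem cell marker transcripts per 10000, against 54.0 in the 52 wells with 1 or 2 and 52.7 in the 74 with none. The listed transcription factors of the lineage stood at a median of 45.4 per 10000 in those 10 wells, 22.4 in the 52 and 19.3 in the 74. The other receptor genes stood at 18.6, 9.66 and 7.95, and the cytoskeleton, signalling and eicosanoid genes at 59.1, 33.5 and 25.4. The granule and secretion genes did not follow this order, at 23.8, 23.2 and 26.1. Median depth was 3874, 3304 and 2580 transcripts. In wild type plate2 the order of the stem cell markers was the other way round, with 20.6 per 10000 in the 11 wells with 3 or more genes and 0.370 in the 53 with none. There the wells with none had the most erythroid progenitor transcripts, a median of 32.3 per 10000 against 10.3.

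Some plate2 wells with 3 or more genes carried other programmes. Barcode 128 of heterozygous plate2 library 2 held 331 erythroid progenitor transcripts and 73 of Hbb-bs beside 1 of Itga2b, 1 of Gp1bb and 2 of Gp9. Barcode 27 of heterozygous plate2 library 1 held 32 transcripts of Car1, an early erythroid enzyme, and 9 of Gata1 beside 4 of Itga2b. Barcode 172 of wild type plate2 library 1 held 9 of Car1 beside 4 of Itga2b.

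**Figure D5:**
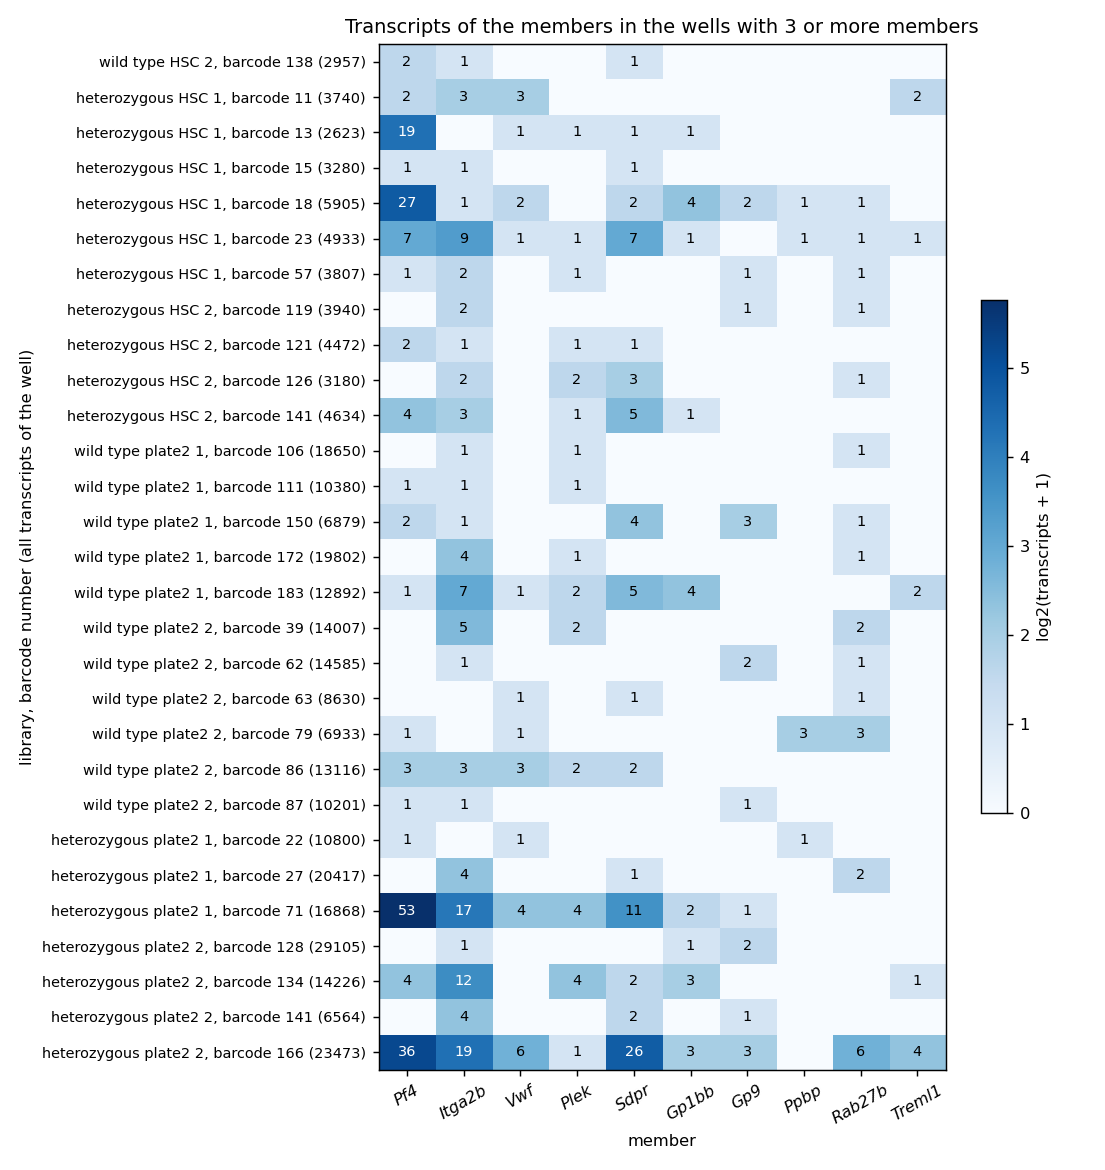
Transcripts of each of the 10 genes (columns) in the 29 wells with 3 or more of them (rows, with the well's total transcripts in brackets). Colour is log2 of the transcripts plus 1, and printed numbers are the transcripts. Barcodes 71 and 166 of heterozygous plate2 have the darkest Pf4, Itga2b and Sdpr cells, with 53 and 36 Pf4 transcripts.

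Plate2 libraries were set against HSC libraries to ask how these genes change outside the stem cell sort. Plate, depth and gates differ together in this contrast and cannot be told apart. Itga2b fell in wild type plate2 (log2 fold change -1.37 ± 0.45, edgeR adjusted p = 0.0397, where 17.8% of tested genes passed, 9.55% up and 8.21% down). The call was lost without wild type HSC library 1 (-0.72, edgeR adjusted p = 0.468), wild type plate2 library 1 (-0.98, 0.276) and heterozygous plate2 library 1 or 2 (-1.31 each, 0.0638 and 0.0626), and without top wells (-0.98, 0.222). It was also lost with DESeq2 (adjusted p = 0.0924), with no filter on low counts (edgeR adjusted p = 0.0916) and with a minimum of 2000 transcripts per well (edgeR adjusted p = 0.121). In heterozygotes Itga2b was at -0.65 ± 0.39 (edgeR adjusted p = 0.238). Pf4 fell in heterozygous plate2 (-1.12 ± 0.39, edgeR adjusted p = 0.0455, where 22.2% of genes passed, 11.9% up and 10.3% down) and was at -1.49 ± 0.86 in wild type (edgeR adjusted p = 0.236). Without top wells the heterozygous value was -3.56, from which nothing is read, since those wells were chosen by these genes and held a larger share of Pf4 in plate2 than in HSC. The call was lost without heterozygous HSC library 1 (-0.35, 0.685), heterozygous plate2 library 1 (-1.31, 0.139) or library 2 (-0.92, 0.329), all by edgeR. It was also lost with DESeq2 (adjusted p = 0.232) and with own barcodes only (edgeR adjusted p = 0.0502). Plek was at 0.48 ± 0.86 in wild type and -1.25 ± 0.55 in heterozygotes, and Sdpr at 0.03 ± 1.05 and -0.42 ± 0.53, and neither passed by edgeR (adjusted p from 0.108 to 0.989).

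The other genes of the pathway, in 4 lists by role, did not pass between genotypes in either set or over both by edgeR or limma-voom, and by DESeq2 1 did (Tmsb4x, in HSC). Of 20 receptor, 13 granule, 17 cytoskeleton, signalling and eicosanoid and 12 transcription factor genes listed, 11, 8, 13 and 12 could be tested. At an unadjusted p under 0.05 there were 1, 0, 3 and 3 in HSC and 2, 3, 0 and 2 in plate2 by edgeR. In HSC libraries the 11 receptor genes had a median log2 fold change of 0.29 beside 0.03 over all genes. For 8 granule genes the median was -0.01, for 13 cytoskeleton, signalling and eicosanoid genes 0.42 and for 12 transcription factors 0.17. In plate2 the 4 medians were -0.11, 0.08, -0.22 and -0.09 (all genes 0.00). Genes of smallest p, none of which passed by edgeR, included the adhesion receptor Pear1 (1.87 ± 0.73 in HSC, adjusted p = 0.373, with 1 and 3 transcripts in wild type and 15 and 19 in heterozygous libraries), the signalling regulator Rgs18 (1.69 ± 0.59 in HSC, 0.317) and Gata2 (1.05 ± 0.39 in HSC, 0.350). In plate2 they included Pear1 (-1.25 ± 0.54, edgeR adjusted p = 0.882) and Gata2 (-0.76 ± 0.28, 0.666).

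Between plate2 and HSC some genes of each list passed. In heterozygotes 3 of 11 receptor genes fell and 0 rose, 2 of 8 granule genes fell and 1 rose, 6 of 13 cytoskeleton, signalling and eicosanoid genes fell and 0 rose, and 3 of 12 transcription factors fell and 0 rose (of all tested genes 11.9% rose and 10.3% fell). The medians were -0.53, -0.72, -0.81 and -0.21, beside 0.05 over all genes. The log2 fold change was -2.52 ± 0.52 for Pear1 (edgeR adjusted p = 0.00178), -2.43 ± 0.38 for Nbeal2, the alpha granule gene of grey platelet syndrome (0.000156), -2.02 ± 0.30 for Plcg2, a phospholipase of platelet receptors (0.000106), and -2.52 ± 0.29 for Bin2 (9.12e-06). F13a1, the granule gene that rose, was at 8.43 ± 1.77 (edgeR adjusted p = 0.00248), with 0 transcripts in both heterozygous HSC libraries. In wild type 1 of 11 receptor genes, 1 of 8 granule genes, 5 of 13 cytoskeleton, signalling and eicosanoid genes and 1 of 12 transcription factors fell, while 0, 0, 2 and 2 rose, beside 8.21% of all tested genes that fell and 9.55% that rose. The wild type medians were 0.12, 0.23, -0.34 and -0.42, beside 0.08 over all genes, so the receptor and granule lists lay above that of all genes. There Nbeal2 was at -3.04 ± 0.46 (edgeR adjusted p = 0.000112), Plcg2 at -2.10 ± 0.33 (0.000176) and Bin2 at -1.43 ± 0.32 (0.00391). The wild type calls of Nbeal2, Plcg2 and Bin2 were lost with a minimum of 2000 transcripts per well (edgeR adjusted p = 0.0513, 0.317 and 0.0693). Genes that rose in wild type plate2 included Tmsb4x (2.12 ± 0.46, edgeR adjusted p = 0.00336), Gata2 (1.37 ± 0.37, 0.0142) and Fli1 (2.20 ± 0.70, 0.0321). Fli1 had 2 and 1 transcripts in wild type HSC. Gata2 and Fli1 did not pass in every alternative.

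Across the 436 kept wells, the genes whose level followed the sum of the 10 most closely included Rap1b (Pearson's r = 0.353), Muc13 (0.329), Bin2 (0.319), F2r (0.306), Ptgs1 (0.300), Nrgn (0.280) and Meis1 (0.265), out of 6950 genes ranked on log2(CPM + 100). Without top wells the first 8 included Muc13 (0.304), Bin2 (0.303), Rap1b (0.279), Ptgs1 (0.263), Trim56 (0.262), Itih5 (0.260) and F2r (0.249), over 428 wells. Rap1b encodes a small GTPase that activates platelet integrins, F2r the thrombin receptor PAR1, and Ptgs1 the cyclooxygenase of platelets. These correlations are weak, come from sparse counts of wells that share libraries and differ in depth, and are given as a description. HSC and plate2 wells were pooled with no term for the set. The 10 genes summed to between 204 and 614 CPM in HSC libraries and between 134 and 270 CPM in plate2. What part the sets had in the ranking was not tested.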

How the data were processed

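RNA of single bone marrow progenitor cells was measured with CEL-Seq2 in 8 libraries, 2 for each genotype and set. The authors deposited expected counts (estimated counts), 1 value for every gene and barcode, without scaling for depth. Each is what a pool of 4096 identifiers gives for a whole number seen, after correction for collisions (largest deviation 3.64e-12). Per the submitters' processing notes, BWA 0.6.2-r126 and mm10 were used, with no role stated. For annotation, filters and counting tool the answer is not given in the sources used here. Spike-in rows (70) stayed out, and 0% of rows named no gene.

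Values were rounded to whole numbers and summed over wells with at least 1000 transcripts per library. edgeR 4.0.16 in R 4.3.3 (TMM, filterByExpr, quasi-likelihood, two-sided) gave adjusted p by Benjamini-Hochberg over 6690 genes, passed under 0.05. A one-way layout of 4 groups gave each contrast, and plate set was a term in the fit over both sets. The SE of an edgeR fold change is its size over the root of the F statistic. CPM carry no TMM factors. Shares of wells were compared by exact permutation of genotype over libraries within sets. The Clopper-Pearson intervals at 95% cover counting error only. Thinning used seed 1. No doublet caller was run. The fitting code was first tested on simulated data. The 10 genes are always named, of each other list up to 4 that passed or, failing that, 2 of smallest p, and the text gives examples; Tmsb4x was named after its values were seen. For likeness, the 8 genes of largest r were taken among genes with at least 50 transcripts in at least 10 wells. The 10 genes and the lists were chosen with earlier results of these data known. Listed genes P2ry12, Cxcl5, Tubb1 and Myl9 were not analysed here, and results of some genes under these rules are not reported here.

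Also tried were DESeq2 1.42.0, RLE size factors in edgeR, limma-voom (limma 3.58.1), all genes without a filter, wells of at least 2000 transcripts, all barcodes, thinned wells, no top wells, own 96 barcodes, whole identifiers, only the libraries of a set, the replicate number as a block and leaving out each library. Positions came from GENCODE vM21, which held 19011 of the gene names, and promoters from RefSeq. Other tools were Python 3.11.15, numpy 2.4.6, pandas 2.3.3, scipy 1.17.1 and matplotlib 3.10.9.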

Additional observations from a re-analysis of the deposited data

Results flagged for a closer look

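Transcripts of the 10 genes also lay on barcodes that the comparisons did not use, those with fewer than 1000 transcripts, above the 3 that a count of 0 would allow. Wild type HSC libraries 1 and 2 had 11 and 13 there, heterozygous HSC 14 and 13, wild type plate2 8 and 12, and heterozygous plate2 library 2 had 14. Of these, 5 and 5 lay outside the own 96 barcodes in wild type HSC, 12 and 9 in heterozygous HSC, 8 in wild type plate2 library 2 and 4 in heterozygous plate2 library 2.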

How the results depend on the processing

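Of 20 alternatives, those that left out top wells or single libraries changed most calls, and the cause was not tested. Top wells were chosen by the 10 genes, so leaving them out is not an independent check of these genes. The number of the 10 genes that passed went from 0 to 1 in HSC (Pf4, adjusted p = 0.0197 by edgeR) with no low-count filter. In plate2 it went from 1 to 0 without top wells and ranged from 0 to 1 without single libraries, and over both sets it went from 1 to 0 without top wells and ranged from 0 to 1. For plate2 against HSC in wild type it went from 1 to 0 with DESeq2, no low-count filter, 2000 transcripts per well and no top wells, and ranged from 0 to 1 without single libraries. In heterozygotes it went from 1 to 0 with DESeq2 and with own barcodes only, to 2 with limma-voom and without top wells (which were chosen by these genes), and ranged from 0 to 1 without single libraries. DESeq2 gave no adjusted p for Pf4 over both sets or in HSC, and none of the 10 passed the count filter after thinning (968 genes tested), so neither gives a value there. No gene passed the difference between sets in the main edgeR fit, where 602 genes had an unadjusted p under 0.05. In that contrast 0 passed with DESeq2 and 1 with limma-voom. By edgeR, 21 of 19756 passed with no low-count filter and 1 of 7013 with all barcodes.

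Directions turned only for values that had not passed. Itga2b between genotypes went to 0.060 in HSC and -0.36 in plate2 without top wells, and leaving out libraries spanned -0.85 to 0.16 in HSC, -0.25 to 0.54 in plate2 and -0.37 to 0.20 over both sets. Plek spanned -1.16 to 0.15 in plate2 and -0.053 to 0.64 over both sets, with -0.077 by limma-voom. The difference between sets for Pf4 was -1.96 without top wells and spanned -0.68 to 1.40 without single libraries, that of Itga2b was -0.42 without top wells, and that of Sdpr spanned -6.03 to 0.46. In plate2 against HSC in wild type, Plek spanned -0.058 to 1.52 and Sdpr -0.88 to 5.59, with -0.037 by DESeq2 and -0.17 at 2000 transcripts per well. Only the HSC labels number replicates, and the first-numbered libraries of both genotypes did not deviate together (r = -0.0898 over 6690 genes). This single correlation, with 2 libraries a group, cannot decide whether the numbers pair the libraries. The main fit used no pairing. With the replicate number as a block, Pf4 was 2.19 in HSC (edgeR adjusted p = 0.166), 1 of the 10 passed in plate2 and over both sets as without it, and the fit called 44 genes in plate2 against 37 and 5 over both sets against 9. Between plate2 and HSC the block gave 871 calls in wild type against 1188 and 1002 in heterozygotes against 1482. The block covered only the HSC libraries numbered 2, so plate2 was there set against the HSC level fitted for number 1. These counts are therefore not from the same comparison, and nothing is read from the drop. Of the 10 genes, 6 were too sparse to test, and for Pf4 in plate2 1 well held most of a library's sum.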
